A study of Mus musculus with 6 samples.

Results

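Among 21631 protein-coding genes, Dnm3 had inside it the most regions listed as more accessible in fibroblasts of the FOP mutant genotype, and its span and surroundings are described here. It held 10, and the next highest count was 7, in Dclk1 and Wwox. The members were chosen by their presence in the authors' deposited lists of differential regions and by position, as the listed regions whose midpoint lay inside Dnm3 or within 100 kb of it. There were 10 such regions among 3521 listed in all. All 10 were in the more accessible list (2965 regions) and 0 in the less accessible list (556 regions), while 84.2% of all listed regions were more accessible. All 10 midpoints lay inside the gene and 0 in the flanks, and the nearest listed regions outside them were 414 kb beyond the 5′ end and 1360 kb beyond the 3′ end of Dnm3. The gene was singled out because of this count, so the count is a description and was not tested.

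The regions came from ATAC-seq, which maps open chromatin by where a transposase can insert into DNA, on bulk embryonic fibroblasts of the mouse. The authors compared 3 libraries from FOP mutant cells, heterozygous for the R206H allele of Acvr1 (Acvr1R206H/+), with 3 from wild-type cells (Acvr1+/+). Both groups were cultured fibroblasts from embryos of day 13.5 with no further treatment stated. Acvr1 encodes a BMP receptor, and R206H is the allele of fibrodysplasia ossificans progressiva, in which bone forms in soft tissue. The labels call the libraries biological replicates without naming embryos. The lists give positions alone. Without values per library, depth is unknown, and neither the size of any change at Dnm3 nor its spread over replicates can be given. In bulk cells, a region that opened further in each cell and one that was open in more of the cells cannot be told apart.

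Dnm3 encodes dynamin 3, a large GTPase of the dynamin family, whose members pinch vesicles from membranes and of which dynamin 3 is best known from brain and testis. A non-coding transcript, Dnm3os, runs on the opposite strand within the gene and is the precursor of the microRNAs miR-199a and miR-214. In mice, loss of Dnm3os disturbs skeletal growth, Twist1 has been reported to drive its transcription, and miR-214 has been reported to restrain osteoblasts. ATAC-seq measures none of these transcripts.

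On GRCm38, Dnm3 spans chr1:161982450-162478321 on the minus strand, 495.9 kb from end to end, so that its 5′ end has the higher coordinate. Dnm3os, a lncRNA of 7.93 kb, lies on the plus strand at chr1:162217623-162225550. Its own 5′ end faces the 3′ end of Dnm3, and it starts 261 kb from the 5′ end of Dnm3, at 52.6% of the span. The hairpin of Mir199a-2 (chr1:162217814-162217923) and that of Mir214 (chr1:162223368-162223477) both lie inside Dnm3os on the plus strand. A second lncRNA with regions beside it, 2810442N19Rik, lies on the plus strand at chr1:162004969-162016485, near the 3′ end of Dnm3.

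The mature microRNAs made from the host transcript are printed because they are the products by which this locus is known in bone. Sequences are from RefSeq for GRCm38.p6, and capitals mark the seed, bases 2 to 8, which guides target pairing.
mmu-miR-199a-5p: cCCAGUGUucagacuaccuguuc
mmu-miR-199a-3p: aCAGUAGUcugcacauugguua
mmu-miR-214-5p: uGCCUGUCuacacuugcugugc
mmu-miR-214-3p: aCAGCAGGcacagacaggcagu
The seed CAGUAGU of miR-199a-3p was shared, among 1738 mature mouse microRNA entries, with miR-199b-3p, and the seed CAGCAGG of miR-214-3p with miR-761. The whole mature sequence of miR-199b-3p is the same as that of miR-199a-3p.

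The start regions of Dnm3os and 2810442N19Rik are printed, from 250 bases before to 50 after the annotated start, since they are the host transcript's own promoter and the annotated promoter in Dnm3 closest to a listed region. Capitals mark matches to the motifs searched.
Dnm3os, chr1:162217373-162217672, plus strand: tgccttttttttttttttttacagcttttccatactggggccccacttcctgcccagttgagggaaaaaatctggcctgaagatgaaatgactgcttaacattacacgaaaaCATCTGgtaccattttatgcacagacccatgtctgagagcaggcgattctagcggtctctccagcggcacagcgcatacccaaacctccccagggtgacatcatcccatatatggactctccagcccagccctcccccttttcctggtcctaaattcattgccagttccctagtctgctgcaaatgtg
2810442N19Rik, chr1:162004719-162005018, plus strand: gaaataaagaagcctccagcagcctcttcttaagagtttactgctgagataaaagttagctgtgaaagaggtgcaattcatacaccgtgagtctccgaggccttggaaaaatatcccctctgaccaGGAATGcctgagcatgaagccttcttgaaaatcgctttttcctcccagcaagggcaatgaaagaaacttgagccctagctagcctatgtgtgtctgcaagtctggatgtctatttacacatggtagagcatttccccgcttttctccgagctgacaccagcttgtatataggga
The motifs were TGACTCA (AP-1), GGAATG (TEAD), TGTGGT (RUNX), GGCGCC (SMAD1/5), GTCTAG (SMAD) and CATCTG (an E-box that TWIST proteins can bind), on both strands. The Dnm3os window held 1 match, the E-box at position -138, and 17.2% of 32851 mouse promoter windows of the same length held that E-box. The 2810442N19Rik window held 1 match, the TEAD motif at position -124, against 14.7% of all windows. No match overlapped another. The 2 windows had a GC content of 48.7% and 46.0%, with 5 CpG each, against medians of 52.7% and 7 over all windows. The window of Dnm3 itself (chr1:162477985-162478284, minus strand) had 56.3% GC and 12 CpG, with 1 RUNX match (16.8% of all windows) and 1 E-box match.

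None of the 10 regions touched these windows. The nearest region edge was 156 kb from the Dnm3 window, 39.6 kb from the Dnm3os window and 91 bp from the 2810442N19Rik window. The regions are numbered from the 5′ end of Dnm3, and distances are from region midpoints unless an edge is named.

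Only 2 regions lay between the 5′ end of Dnm3 and Dnm3os. Region 1 (chr1:162321319-162321770, 452 bp) was 157 kb from the 5′ end of Dnm3 and 96.0 kb from Dnm3os. Region 2 (chr1:162299577-162300350, 774 bp) was 178 kb from the 5′ end and 74.4 kb from Dnm3os. The first 157 kb of the gene, with the start of Dnm3 and the lncRNA Gm39688, held no listed region, and the nearest region edge was 58.5 kb from Gm39688.

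Dnm3os and both microRNA hairpins lay in a stretch of 122 kb with no listed region, between region 2 and region 3. Region 3 (chr1:162177315-162177766, 452 bp) was the closest to the host transcript, 40.1 kb from the 5′ end of Dnm3os, 40.3 kb from Mir199a-2 and 45.8 kb from Mir214. Within 100 kb of Dnm3os there were 3 regions, numbers 1 to 3, and inside it 0. All 3 lie in Dnm3, which was singled out for its count, and no share over all genes was computed for this window. The lists hold only what passed the authors' threshold, so an open promoter of Dnm3os with no listed change could not be seen.

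The other 7 regions were toward the 3′ end of the gene. They lay within 98.2 kb (chr1:162003712-162101880), 19.8% of the span. Region 4 (chr1:162100112-162101880) was 119 kb from the 3′ end of Dnm3 and 1769 bp wide. Region 5 (chr1:162093853-162094696, 844 bp) lay 5.42 kb further on, edge to edge. Region 6 (chr1:162052048-162053635, 1588 bp) was 70.4 kb from the 3′ end. Edge to edge, it had 15.6 kb to the next region and 40.2 kb to the one before.

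Regions 7 (chr1:162035869-162036426, 558 bp) and 8 (chr1:162020247-162020789, 543 bp) were 53.7 kb and 38.1 kb from the 3′ end. Region 8 lay 4.03 kb beyond the 3′ end of 2810442N19Rik, a lncRNA of 11.5 kb. Region 9 (chr1:162008635-162009449, 815 bp) was the 1 region inside that lncRNA, 26.6 kb from the 3′ end of Dnm3. Region 10 (chr1:162003712-162004628, 917 bp) was the last, 21.7 kb from the 3′ end of Dnm3, and its edge was 341 bp upstream of the start of 2810442N19Rik. Regions 8, 9 and 10 therefore sat on, or within 5 kb of, 2810442N19Rik. Whether a region lies in an exon, an intron or a UTR was not analysed here, since the annotation used gives gene ends only.

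**Figure D1:**
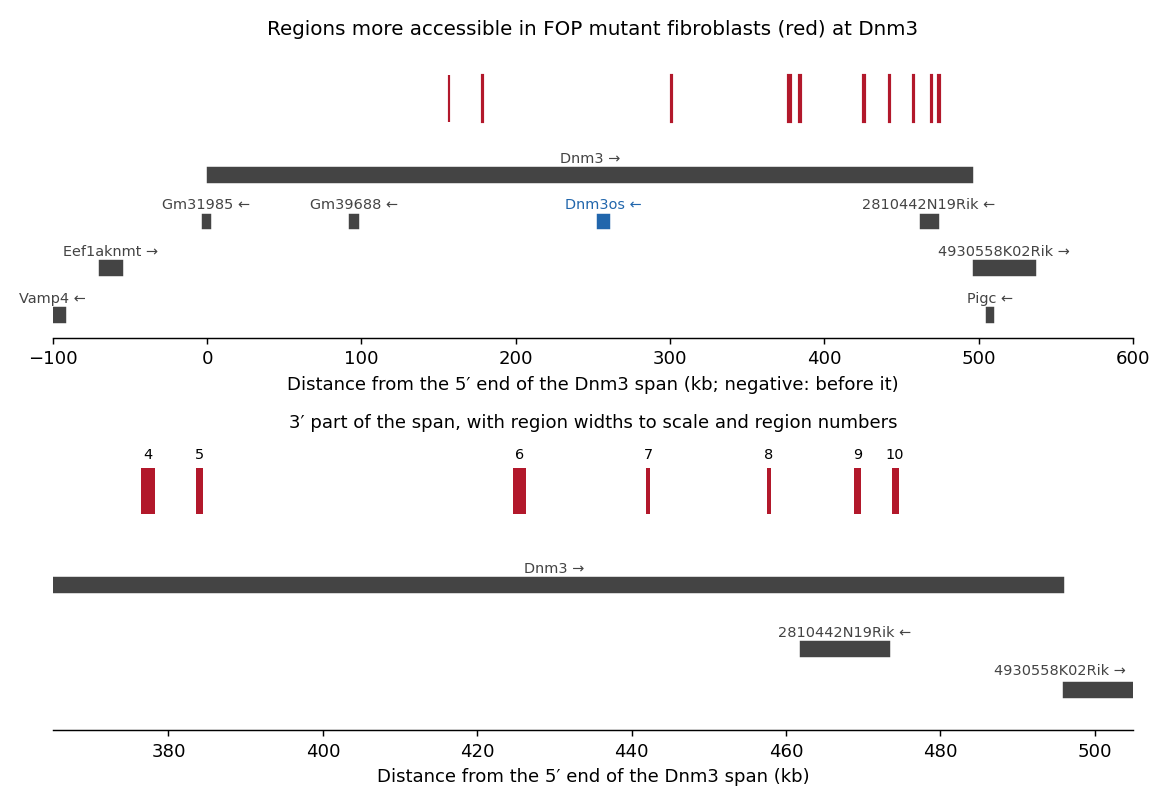
Map of the Dnm3 span and 100 kb on each side, with distance from the 5′ end of Dnm3 in kb on the horizontal axis, listed regions as red bars and annotated genes as boxes with an arrow for the direction of transcription; the lower panel shows the 3′ part with region numbers and widths to scale. Of 10 regions, 7 lie in the last 119 kb of the gene, 2 lie before Dnm3os (blue, which holds both microRNA hairpins) and 0 lie in the flanks.

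Counted by side of the host transcript, 8 regions lay in the 235 kb from Dnm3os to the 3′ end of Dnm3 and 2 in the 253 kb from Dnm3os to the 5′ end, which is 34.0 against 7.91 regions per Mb. In steps of 50 kb from the 5′ end, the counts were 0, 0, 0, 2, 0, 0, 1, 2, 2 and 3. By position, 8 of 10 were in the 3′-most 50% of Dnm3 and 7 of 10 in the last 25%. In protein-coding genes of 300 kb or longer other than Dnm3, 234 of 373 more accessible regions (62.7%, exact 95% interval 57.6 to 67.7%, counting error only) were in the 3′-most 50%, and 122 (32.7%) in the last 25%. This used the 425 of 557 long genes whose strand the promoter table gives. The difference between Dnm3 and these genes was not tested. Single genes among those most like Dnm3 in density or counts had their regions as far toward the 3′ end: Bbs9 had 5 of 5 in the 3′-most 50% and 4 in the last 25%, and Vps13d 4 of 4 and 3. Others did not, such as Plce1, with 2 of 4 and 1, and Rad51b, with 2 of 5 and 2. Wwox, the gene most like Dnm3 in counts, and Smyd3 had no known strand and were left out of this comparison.

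**Figure D2:**
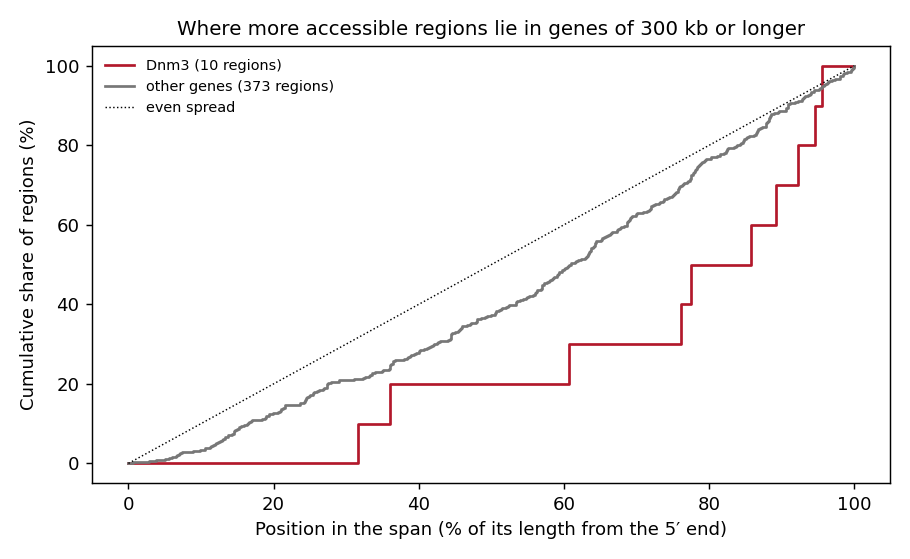
Cumulative share of more accessible regions (vertical axis, %) by position in the gene (horizontal axis, % of the span from the 5′ end), for the 10 regions of Dnm3 and 373 regions of other genes of 300 kb or longer. The Dnm3 line stays at 0 until 31.6% of the span and makes 7 of its 10 steps after 75%; the line of the other genes also runs below the even spread.

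Width was not part of how the regions were chosen. The Dnm3 regions were wide for their list: the median was 794.5 bp (mean 871 ± 459 bp, SD over 10 regions), against a median of 572 bp over the 2965 more accessible regions (quartiles 439 and 762 bp). Of the 10, 6 exceeded the upper quartile of the list. Region 4, at 1769 bp, was the widest of all 2965, and region 6, at 1588 bp, ranked sixth. At the other end, regions 1 and 3, at 452 bp each, were at the 27.0th percentile. The 3 regions outside the 3′ group measured 452 to 774 bp, and 1 of them, region 2, exceeded the upper quartile. In the 3′ group 5 of the 7 exceeded it, while regions 7 and 8, at 558 and 543 bp, were below the list median. Regions are not replicates, and how the authors merged peaks is not given in the sources used here, so these widths were not tested. Together the regions covered 8712 bp, or 1.76% of the Dnm3 span, while the more accessible list covered 0.0702% of the annotated genome. The share at Dnm3 follows largely from the count for which the gene was singled out, so it describes the gene and tests nothing.

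**Figure D3:**
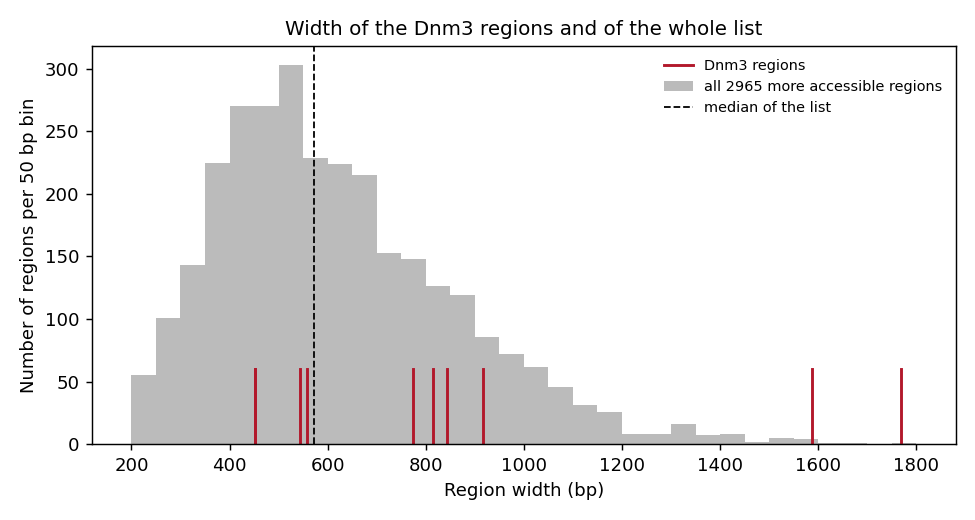
Widths in bp of the 10 Dnm3 regions (red lines, of arbitrary height) over the number of more accessible regions in bins of 50 bp (grey). The list median of 572 bp is dashed; 6 red lines are right of the upper quartile, and the one at 1769 bp is the widest region of the list.

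The regions were near one another without abutting. Edge-to-edge gaps between successive regions ran from 4.01 to 122 kb with a median of 15.6 kb. Within 10 kb, 4 of 10 had a neighbour of the same list (regions 4 and 5, and regions 9 and 10), and within 50 kb 9 of 10 did. A gene chosen for holding 10 regions in 496 kb has close neighbours by that choice, so these counts only describe the spacing. A stretch of 100 kb held up to 7 more accessible regions, and this number was met at 2 places in the genome, at the 3′ end of Dnm3 and around Itga11, which encodes a collagen-binding integrin subunit. At Itga11 the 7 regions extended over 75.1 kb and had a median width of 600 bp, against 98.2 kb and 844 bp at Dnm3. In the stretches with 5 more accessible regions, the next highest number, the median width ran from 355 to 790 bp.

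The density of regions in Dnm3 was 20.2 per Mb, against 1.55 per Mb on chromosome 1, a 13.0-fold ratio. Both values follow from the count for which the gene was singled out, so they describe it and test nothing. Dnm3 makes up 0.254% of the annotated extent of chromosome 1 and held 3.79% of its 264 more accessible regions. The gene is long but not among the longest, as 227 protein-coding genes have a longer span. Of the 557 protein-coding genes of 300 kb or longer, 44.3% held a more accessible region and 50.4% held no listed region at all. The median count was 0.

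The long genes closest to Dnm3 in density were Jazf1 with 13.3 listed regions per Mb, Plce1, which encodes a phospholipase C, with 13.2, Cmss1 with 13.1, Vps13d with 12.3, and Bbs9, of the ciliary BBSome complex, with 12.1. Each had 4 or 5 regions, all more accessible, and none had more than 4 within 100 kb. By likeness of the counts in both directions (the sum of the absolute differences, ties by length), the nearest genes were Wwox, with 7 more and 0 less accessible regions in 913 kb, and Bbs9, Rad51b, Smyd3 and Cdk14, with 5 and 0 each. Wwox encodes an oxidoreductase with WW domains. In Wwox at most 4 regions lay within 100 kb, against 7 in Dnm3. Genes shorter than 300 kb are left out of these comparisons, and some held more accessible regions more densely than Dnm3. Dclk1 had 7 in 297 kb and Ccdc34 had 5 in 158 kb, against 10 in 496 kb.

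**Figure D4:**
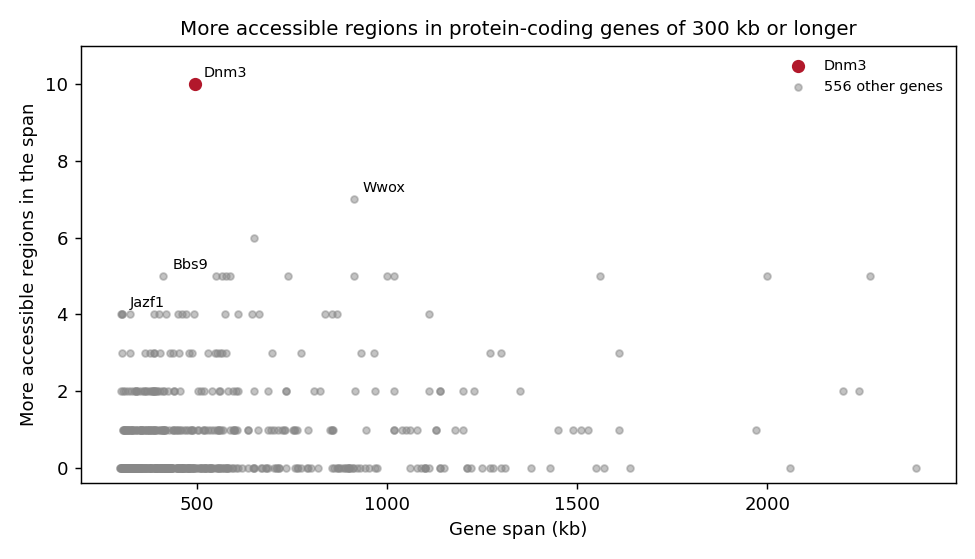
Number of more accessible regions inside each protein-coding gene of 300 kb or longer (vertical axis) by gene span in kb (horizontal axis). Dnm3, with 10 regions in 496 kb, lies above the other 556 genes, of which Wwox has the next highest count, 7.

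The other dynamin genes had no listed region, which is also true of most protein-coding genes: 7.31% of 21631 were linked to a more accessible region and 2.01% to a less accessible one, by span or as the nearest gene within 100 kb. Nothing is therefore read from the 0 of these 3 genes. Dnm1, the neuronal dynamin, Dnm2, which is expressed in most tissues, and Dnm1l, which acts in mitochondrial fission, each had 0 in the span and 0 within 100 kb, and the nearest listed regions were 362 kb, 808 kb and 1230 kb away. The miR-199 genes sit in the dynamin genes. Mir199a-1 lies inside Dnm2 (chr9:21496495-21496564, minus strand) and gives the same mature miR-199a sequences as Mir199a-2, and Mir199b lies inside Dnm1 (chr2:32318460-32318569, plus strand). The nearest listed regions to them were 880 kb and 397 kb away. Of the 3 miR-199 genes, Mir199a-2 was thus the 1 with listed regions within 100 kb, with 2, both more accessible. Mir199a-2 lies inside the gene singled out for its count, so this difference follows largely from that choice and nothing is read from it.

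Genes that work with dynamins were linked to listed regions at shares near those of all protein-coding genes. A link means that the midpoint lies in the gene, or that no coding gene holds it and this one is the nearest within 100 kb. Of 37 genes of dynamin partners and endocytosis, 2 (5.41%) had a more accessible region, against 7.31% of 21631 protein-coding genes. These were Pacsin2 and Snx18, both encoding membrane-bending proteins, with 1 each. In the other direction 1 of 37 (2.70%) had a less accessible region, Bin1, which encodes an amphiphysin, against 2.01% of all protein-coding genes. The median count in the list was 0. Homer1, a binding partner of dynamin 3, the clathrin chains and the AP2 subunits had none.

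Among 18 genes reported to control Dnm3os or to be targets of miR-199a or miR-214, 3 (16.7%) had more accessible regions, against the same 7.31%, and the median was 0. Among them, Twist2, a relative of Twist1, had 2 at 85.9 and 10.4 kb from the gene, and Runx2, the osteoblast transcription factor, had 1 inside it and 1 at 89.2 kb. Sufu, a brake on Hedgehog signalling, had 1 less accessible region inside it, so 1 of 18 (5.56%) against 2.01%. Twist1, Atf4, Smad1, Ezh2 and Sp7 had 0 in both directions. These lists were drawn up with earlier results of these data known, and nothing is read from shares resting on 3 genes or fewer.

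The genes next to Dnm3 had no listed region inside them. Regions within 100 kb of those at its 3′ side lie inside Dnm3 and were counted there. At the 3′ side are 4930558K02Rik, which begins next to the 3′ end of Dnm3, and Pigc, which encodes an enzyme of GPI anchor synthesis. Their nearest listed region was region 10, with its edge 21.3 and 30.3 kb away. At the 5′ side are Eef1aknmt, a methyltransferase gene, and Vamp4, which encodes a vesicle SNARE, with the edge of region 1 the nearest at 212 and 249 kb. The lncRNA Gm31985, across the 5′ end of Dnm3, the lncRNA Gm31925 and the pseudogene Gm46247 also had none, with the nearest region edge 155, 91.4 and 179 kb away. Among markers of cell types, 2 of 10 for fibroblasts (Dcn with 1 region and Lum with 2) and 1 of 5 for neural cells (Map2) had more accessible regions, and 0 of 3 for endothelium and 0 of 3 for blood, against 7.31% of all protein-coding genes. In the other direction 1 of 5 for neural cells (Nes) and 1 of 3 for endothelium (Cdh5) had a less accessible region, and 0 of 10 for fibroblasts and 0 of 3 for blood, against 2.01%. The Map2 region lay inside its gene. Those of Dcn (23.8 kb), Lum (17.7 and 9.47 kb), Nes (2.08 kb) and Cdh5 (39.8 kb) lay outside. Nothing is read from counts of 0 to 2 genes in lists this short. The lists hold no unchanged regions, so the cell type label could not be checked, and the part of other cell types in the Dnm3 regions was not tested.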

How the data were processed

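The data were 2 region lists from ATAC-seq of 3 FOP mutant and 3 wild-type libraries. The deposited columns are positions in base pairs, with no count, signal or score. Per the submitters' processing notes, the tools the authors used include Bowtie2, MACS2, featureCounts and DESeq2, and the builds are mm10 and GRCm38. Versions, thresholds, offset and duplicate handling, and any pooling before peak calling are unknown: they are not given in the sources. Direction was taken from each list's name.

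Regions were placed by their midpoint on RefSeq genes of GRCm38.p6, and strand came from RefSeq promoter and microRNA tables (Python 3.11.15, pandas 2.3.3, scipy 1.17.1). The placing steps were tested on simulated data. Intervals are 95%, cover counting error only and take regions as independent, though some share a gene. No test was made. Motifs were searched in promoter windows only, as the sequence of the regions was not used here. The gene, members and lists were chosen with earlier results of these data known. The genes named are Dnm3, the annotated genes in its span and flanks, the dynamin and miR-199 genes, the 5 long genes nearest in density and in counts, and genes of the lists with linked regions. Itga11, Dclk1, Ccdc34 and the list genes without a region were chosen after their values were seen. Some items with listed regions are not reported here.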

Additional observations from a re-analysis of the deposited data

How the results depend on the processing

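Of 31 values recomputed under another setting, 26 stayed within 1.5 times the reported count or distance, within the counting interval of the density ratio, or within 1 SD of the median width. Many of these values could not have moved, and the counting interval rests on the count that singled out the gene. The tally is therefore no measure of robustness. The 10 more and 0 less accessible regions were the same with any overlap, with whole regions inside, and with no flanks or flanks of 50 or 250 kb. These settings could not change the counts, as all 10 lay wholly inside the gene and the nearest listed region outside it was 414 kb away. Merging regions within 10 kb left 8 more accessible regions. With a region counted only where the nearest protein-coding gene end was that of Dnm3 and within 100 kb, a choice made after seeing the data, 5 remained, because the other regions lie over 100 kb from both ends. The density ratio ran from 11.29 to 14.11. Regions with a neighbour numbered 0 within 1 kb and 9 within 50 kb, against 4 within 10 kb. The median distance to a gene end was 91.1 kb for protein-coding genes and 38.2 kb for all annotated genes, because the lncRNAs inside Dnm3 then count. Dnm3os had 3 regions within 100 kb and 0 inside it. No paired analysis was possible because the lists hold no value per library; for the same reason leaving out a library and a stricter threshold were not run. Depth is unknown, so what it limits cannot be told.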

Other observations

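The next listed region beyond the 3′ end of Dnm3 was a more accessible one 1360 kb away, linked to Rabgap1l. Beyond its 5′ end the next were at the flavin-containing monooxygenase genes, a cluster that encodes enzymes oxidising drugs and other small molecules. A region at Fmo2 (chr1:162891934-162892887, 954 bp) was 414 kb from Dnm3 and one linked to Fmo6 (chr1:162938088-162939244, 1157 bp) was 460 kb from it, both more accessible. The nearest less accessible region (chr1:162943469-162944223, 755 bp) was also linked to Fmo6, 466 kb from Dnm3.

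In genes of 300 kb or longer with a known strand, 22 of 39 less accessible regions (56.4%, exact 95% interval 39.6 to 72.2%) lay in the 3′-most 50% of the span. The interval takes regions as independent, though some share a gene, such as Prkcb with 4. Neither an even spread nor a difference from the more accessible regions was tested.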
